A study of Mus musculus with 19 samples.

Results

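The comparison described here was that of 5 wildtype male mice injected with lipopolysaccharide (LPS) and 4 wildtype male mice injected with PBS, 9 of the 19 bulk RNA-sequencing libraries of the series. All 9 were wildtype littermates of a *PARK7*/DJ-1 knockout line kept on a C57BL/6NCrl background and were 3 to 4 months old. LPS from E. coli O55:B5 was given intraperitoneally at 4 μg per g of body weight, and both groups were perfused and sampled 6 h after the injection. Cells carrying CD11b, the integrin alpha M chain found on microglia and other myeloid cells, were pulled from the brain with magnetic beads, without the olfactory bulb and cerebellum, so each library is the RNA of all cells that bound the beads of 1 mouse. The libraries were chosen by genotype and treatment alone, and all 18739 genes with enough counts for a test were kept.

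LPS is the outer membrane glycolipid of Gram-negative bacteria. It is handed by CD14 to the receptor pair of TLR4 and MD-2 (*Ly96*), and from there the adaptors MyD88 and TRIF lead to the NF-kappaB factors, the MAP kinases and, through IRF3 and secreted type I interferon, the STAT factors. Microglia are the resident macrophages of the brain and at rest express a set of genes, often called homeostatic, that depends on TGF-beta and CSF1 receptor signalling. Systemic LPS reaches these cells largely through blood-borne cytokines and the vessel wall.

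Total counts ranged from 11936364 to 17340044 in the LPS mice and from 14558136 to 19314132 in the PBS mice, where 3 counts in a library equal 0.155 to 0.251 CPM (the count scaled to library size). This limit covers counting error only. *Park7*, the gene disrupted in the knockout line, stood at 25.3 ± 3.91 CPM (SD, n = 5) after LPS and 22.3 ± 2.08 CPM (SD, n = 4) after PBS, so its RNA was present in all 9 libraries, and its difference was not called (log2FC 0.18, SE 0.37, adjusted p = 0.74). The microglial markers *P2ry12*, *Tmem119*, *Cx3cr1* and *Csf1r* were detected in every library, 87.1 CPM or more for *P2ry12* and 4954 CPM or more for *Csf1r*, and *Itgam*, which encodes CD11b itself, stood at 426, 361, 412, 316 and 334 CPM in LPS mice 1 to 5 and 403, 253, 350.1 and 242 CPM in PBS mice 1 to 4 (log2FC 0.25, SE 0.20, adjusted p = 0.369). The first principal component, 76.8% of the variance of the 2000 most variable genes, parted the groups. PBS mouse 2 and LPS mouse 2 carried more RNA of oligodendrocytes, the myelin-forming cells, than the other mice of their groups (8 markers, 10182 against 1117 to 1866 CPM in PBS, and 7102 against 579.8 to 4147 CPM in LPS), and without both of them 3257 genes rose and 2937 fell.

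A gene was called when its p, given by the quasi-likelihood test of edgeR and adjusted over the 18739 genes by the method of Benjamini and Hochberg, was under 0.05 and its log2 fold change of LPS over PBS (log2FC) was at least 0.5 in size. By this rule 3456 genes (18.4%) rose and 3265 (17.4%) fell, together 35.9% of the genes tested. Genes that rose had a median log2FC of 1.18 and those that fell one of -1.19, and the median over all tested genes was -0.06. Large changes were mostly rises, since 388 genes rose and 179 fell by at least 3 on the log2 scale, and 99 rose and 15 fell by at least 5. The 5 LPS values lay wholly above or wholly below the 4 PBS values for 37.8% of all tested genes, for 3109 of those that rose and for 2709 of those that fell. Protein-coding genes made up 2944 of the rises (20.3% of those tested) and 2639 of the falls (18.2%). Of 2082 long noncoding RNAs tested, 230 rose and 393 fell.

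The share of all counts that lay on the risen genes was 36.3, 34.8, 38.6, 42.3 and 42.5% in LPS mice 1 to 5 and 17.7, 17.0, 17.6 and 17.3% in PBS mice 1 to 4. The groups were far apart, at 38.9 ± 3.49% (SD, n = 5) against 17.4 ± 0.342% (SD, n = 4). On the fallen genes the share was 17.8, 16.02, 15.04, 12.4 and 12.4% after LPS and 36.3, 30.5, 34.9 and 32.4% after PBS. These genes were chosen by the same counts, so the shares describe the size of the change and test nothing. The LPS mice were not alike: mice 4 and 5 held the 2 largest shares on risen genes and the 2 smallest on fallen genes. Their animal numbers, 581 and 634, were also the highest of the group, against 531, 551 and 552 for mice 1 to 3. Whether the order of the animals played a part was not tested. The highest value of the LPS group was in mouse 1 for 678, mouse 2 for 127, mouse 3 for 794, mouse 4 for 988 and mouse 5 for 869 of the 3456 risen genes, so mouse 2 was seldom the highest.

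**Figure D1:**
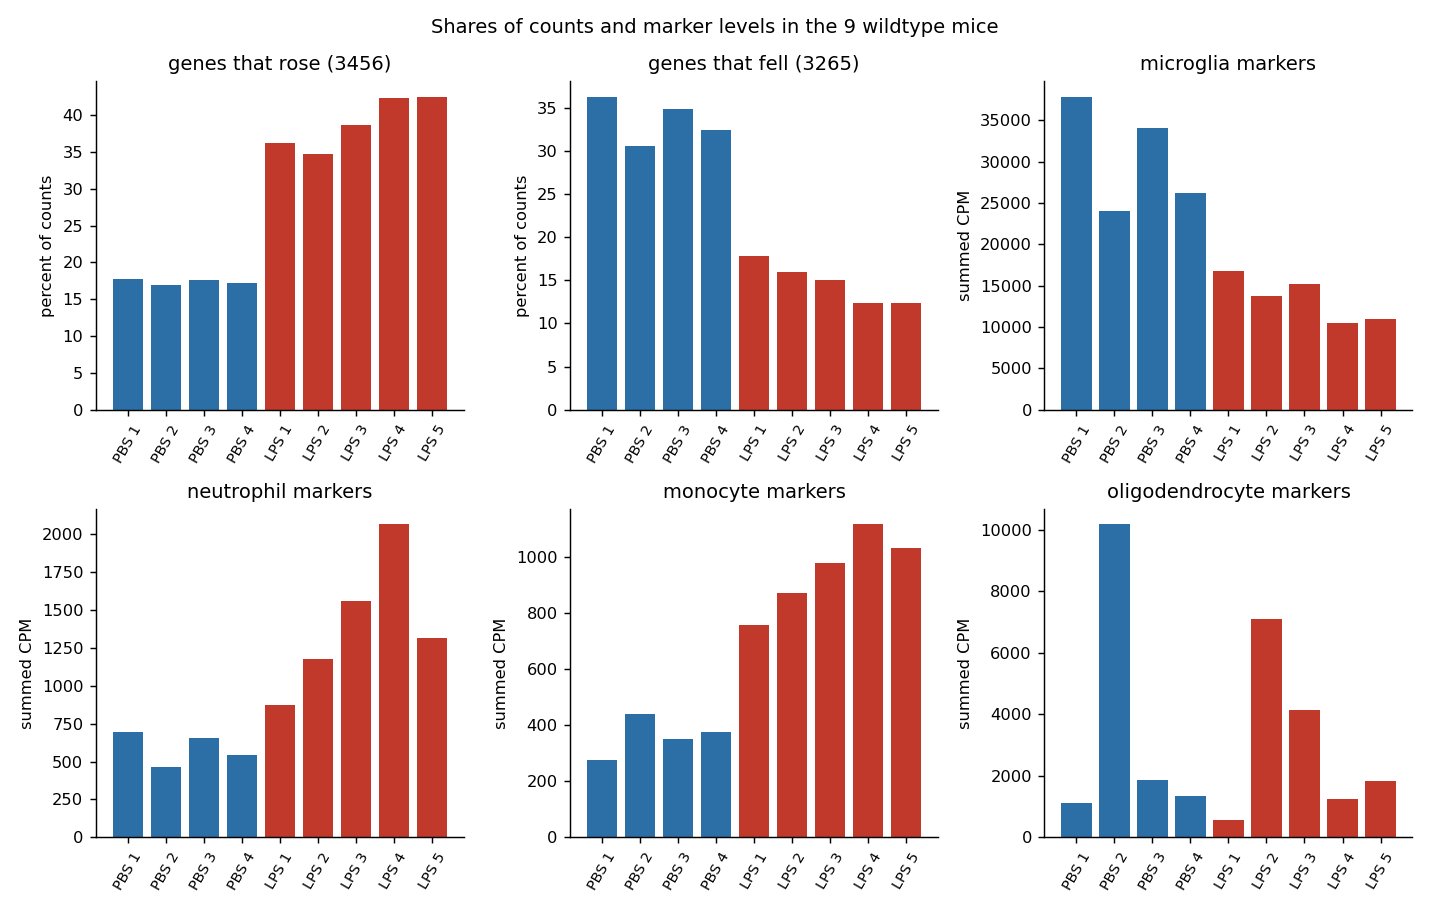
Bars give, for each of the 4 PBS mice (blue) and 5 LPS mice (red), the percent of all counts on genes that rose or fell, and the summed level in CPM of 4 lists of cell type markers. Risen genes took 34.8 to 42.5% of counts after LPS and 17.0 to 17.7% after PBS, and the oligodendrocyte markers were highest in PBS mouse 2 and LPS mouse 2 of their groups.

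To describe the genes by function, 40 lists were used, which together held 1601 distinct tested genes, of which 572 rose and 299 fell. Each list's counts are to be read beside the 18.4% that rose and 17.4% that fell over all tested genes. The lists were chosen with earlier results of these data known, so setting a list's counts beside these shares is description and not a test. A gene that is near 0 in one group can pass the count filter through the other group alone, so counts over tested members leave out the members that were low in both. The highest medians were those of the acute-phase genes, the CXC chemokines and the interferon-stimulated genes, and the lowest those of the homeostatic microglia genes, MHC class II presentation and the lysosomal genes.

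**Figure D2:**
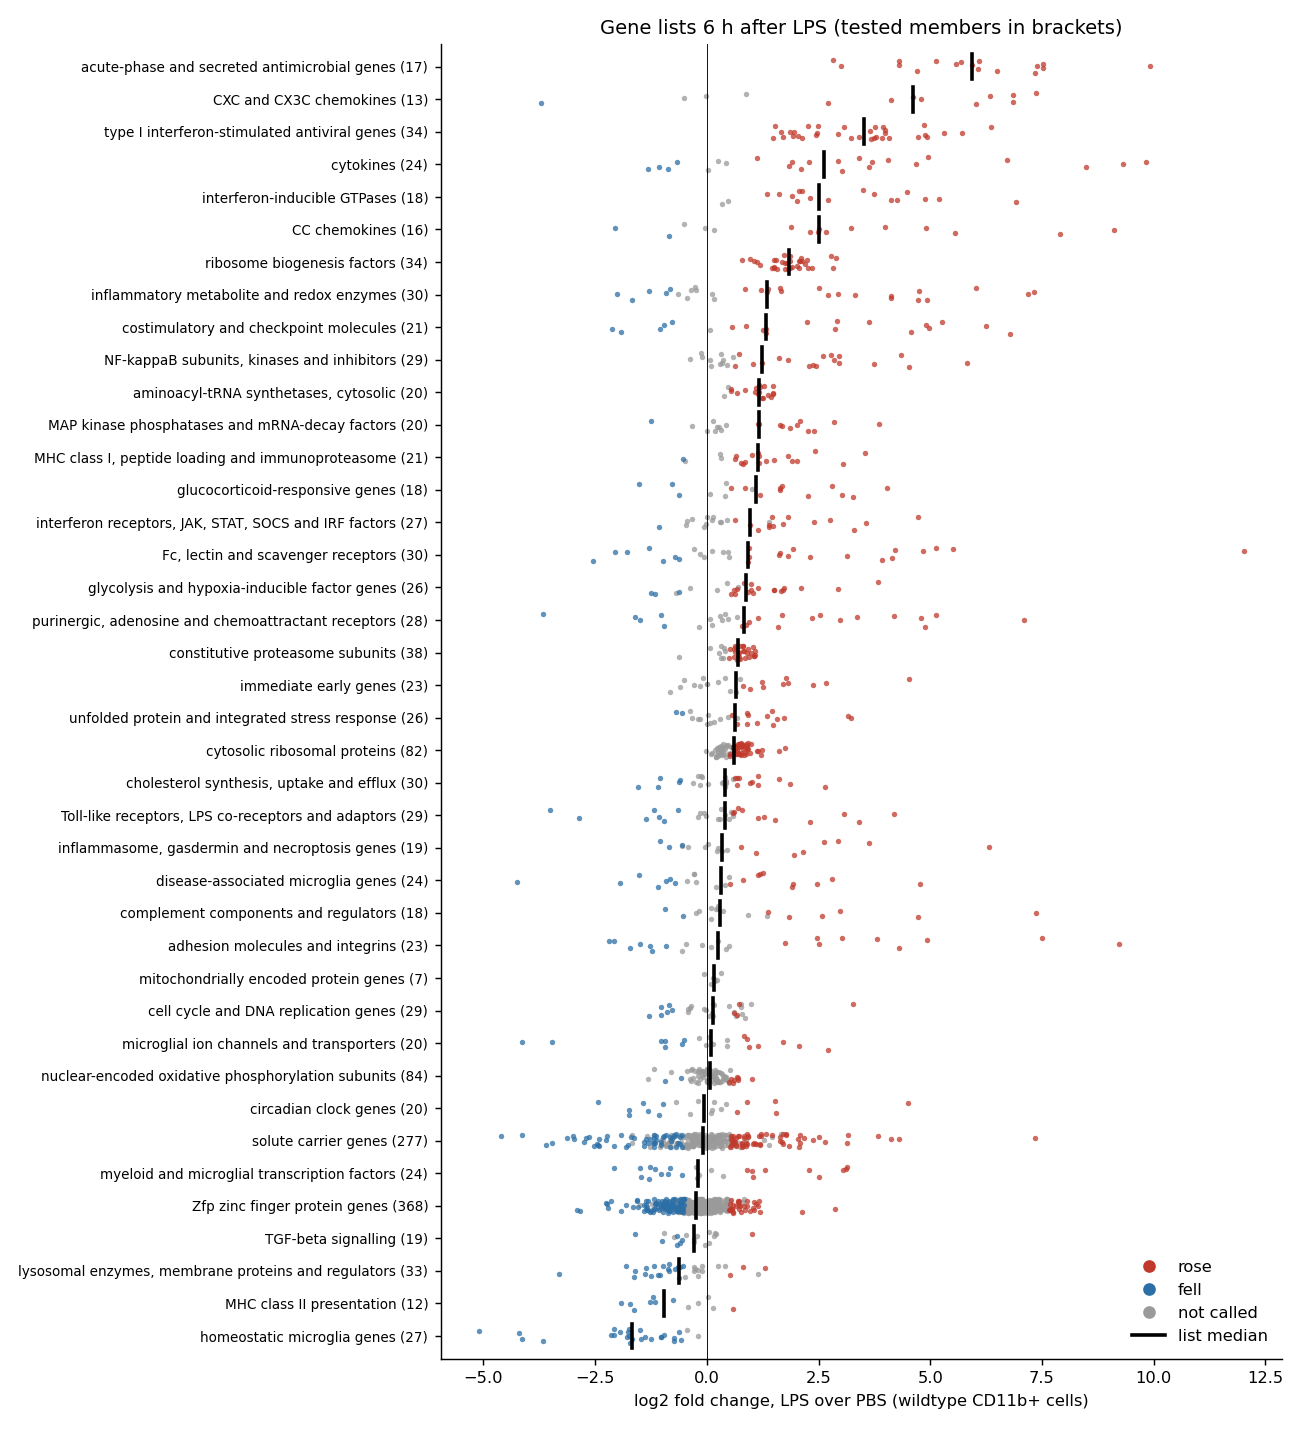
Each dot is the log2 fold change of LPS over PBS of 1 tested gene in one of 40 lists, coloured by whether it rose (red), fell (blue) or was not called (grey), and the black line is the list's median. Medians run from -1.67 for homeostatic microglia genes to 5.93 for acute-phase genes, and the dot near 12 is *Marco*, whose fitted value is not a measured bound because its PBS libraries held 0 counts.

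Among the receptors of bacterial surface molecules, the LPS receptor and its partner were lower while *Tlr2* and *Cd14* were higher. Of 29 genes for Toll-like receptors, co-receptors and adaptors, 11 rose and 7 fell, with a median log2FC of 0.41, where 18.4% of all genes rose and 17.4% fell. *Tlr2*, the receptor for bacterial lipoproteins (chr3:83743576-83749074 in GRCm39, minus strand), stood at 1110.5, 1148, 1874, 2680.3 and 2856 CPM in LPS mice 1 to 5 and at 123, 71.8, 129 and 99.9 CPM in PBS mice 1 to 4 (log2FC 4.19, SE 0.31, adjusted p = 7.49e-09). *Cd14*, which hands LPS to the receptor, stood at 1094, 983, 1487, 2094 and 2277 CPM after LPS and 222, 154, 214 and 169.8 CPM after PBS (log2FC 3.06, SE 0.26, adjusted p = 3.66e-08). Both were above every PBS mouse in every LPS mouse, and both were highest in mice 4 and 5. *Tlr4*, the signalling receptor for LPS (chr4:66745783-66849936 in GRCm39, plus strand), was instead lower, at 116, 84.6, 88.6, 59.4 and 43.2 CPM against 199, 128, 187 and 139 CPM (log2FC -1.06, SE 0.22, adjusted p = 5.78e-04). Its partner *Ly96* gave 3.10, 2.50, 3.19, 2.54 and 3.16 CPM against 8.34, 6.79, 7.23 and 7.51 CPM (log2FC -1.36, SE 0.20, adjusted p = 2.13e-05). Neither gene's groups overlapped, and *Tlr4* was lowest in mice 4 and 5. *Cd180* (log2FC -3.50) and *Ly86* (log2FC -0.95), a receptor of the same family and its own partner, fell too, as did *Tlr12* (log2FC -2.86), *Tlr5* (log2FC -1.17), the flagellin receptor, and *Unc93b1* (log2FC -0.64), which carries the nucleic acid-sensing receptors to the endosome. *Irak3* (log2FC 3.40), a kinase-like brake on MyD88 signalling, rose, as did *Tlr1* (log2FC 2.31), the dimer partner of TLR2, *Myd88* (log2FC 1.29) and *Tlr7* (log2FC 0.70).

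Most of the NF-kappaB system rose, its inhibitors included. Of 29 tested genes for subunits, kinases and inhibitors, 18 rose and 0 fell (median log2FC 1.24), against 18.4% that rose over all genes. *Tnfaip3* encodes A20, a ubiquitin-editing inhibitor of the pathway (chr10:18874201-18891405 in GRCm39, minus strand), and stood at 1465, 1091, 1879, 3824 and 3827 CPM in LPS mice 1 to 5 and 206, 129, 217 and 176 CPM in PBS mice 1 to 4 (log2FC 3.73, SE 0.41, adjusted p = 7.11e-07). Mice 4 and 5 again lay above the other LPS mice. *Nfkbia* encodes IkappaB-alpha, which holds the factors in the cytoplasm, and gave 1259, 944, 1323, 1667 and 1477 CPM against 272, 214, 252 and 248 CPM (log2FC 2.44, SE 0.26, adjusted p = 3.97e-07). Other inhibitors that rose were *Tnip1* (log2FC 2.84), *Tnip3* (log2FC 2.95), *Nfkbib* (log2FC 1.83) and *Nfkbie* (log2FC 1.62), and the nuclear IkappaB proteins *Bcl3* (log2FC 4.34) and *Nfkbiz* (log2FC 2.37) rose as well. Of the 5 subunits, *Nfkb2* (log2FC 2.79), *Relb* (log2FC 2.60), *Nfkb1* (log2FC 1.02) and *Rela* (log2FC 0.63) rose, and *Rel* was not called (log2FC 0.60). The non-canonical kinase *Ikbke* (log2FC 5.82) and the adaptor *Traf1* (log2FC 4.53) rose most in the list, and the kinases *Chuk*, *Ikbkb* and *Tbk1* were not called (log2FC 0.36, 0.34 and 0.33). The promoter windows of the first 2 of these genes and of *Tlr2* are given because these genes gained much RNA. They span 250 bases before to 50 bases after the RefSeq start site in GRCm38.p6. *Tnfaip3* and *Tlr2* were chosen among genes whose window holds a kappaB-like match and *Nfkbia* among those with an interferon-response-like match, both defined next. Capitals mark matches to GGGANTTNC (kappaB-like) or GAAANNGAA (interferon-response-like), on either strand, where N is any base.
Tnfaip3 (chr10:19015361-19015660, minus strand): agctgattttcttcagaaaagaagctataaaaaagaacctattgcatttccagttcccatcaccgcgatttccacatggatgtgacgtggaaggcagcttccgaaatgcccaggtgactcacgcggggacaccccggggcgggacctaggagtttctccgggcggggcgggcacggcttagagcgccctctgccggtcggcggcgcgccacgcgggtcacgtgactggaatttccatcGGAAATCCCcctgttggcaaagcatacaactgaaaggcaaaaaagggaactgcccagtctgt
Nfkbia (chr12:55492598-55492897, minus strand): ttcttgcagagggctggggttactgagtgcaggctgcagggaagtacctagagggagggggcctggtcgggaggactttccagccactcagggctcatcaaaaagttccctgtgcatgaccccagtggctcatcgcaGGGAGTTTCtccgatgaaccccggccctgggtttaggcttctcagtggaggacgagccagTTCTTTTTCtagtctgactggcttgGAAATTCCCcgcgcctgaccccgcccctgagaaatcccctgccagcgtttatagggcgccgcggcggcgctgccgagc
Tlr2 (chr3:83841559-83841858, minus strand): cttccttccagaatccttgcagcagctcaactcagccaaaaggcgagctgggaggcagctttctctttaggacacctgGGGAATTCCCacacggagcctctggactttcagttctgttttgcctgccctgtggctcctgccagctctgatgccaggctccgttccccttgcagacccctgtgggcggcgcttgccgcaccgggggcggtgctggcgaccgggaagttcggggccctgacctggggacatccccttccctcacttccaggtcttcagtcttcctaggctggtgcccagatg
In these windows the kappaB-like letters began 12 bases before the start site of *Tnfaip3*, 113 and 28 bases before that of *Nfkbia*, and at 172 and 171 bases before that of *Tlr2*, where matches on both strands overlap. *Nfkbia* also held an interferon-response-like match from 53 bases before its start site. A match is a run of letters and not a binding site, and its frequency over all promoters is given further on.

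Part of the genes that restrain the response rose beside it. Of 20 genes for MAP kinase phosphatases and factors that destabilise mRNA, 11 rose, 1 fell and 8 were not called (median log2FC 1.16). They included *Dusp2* (log2FC 3.86), *Dusp5* (log2FC 2.39) and *Dusp1* (log2FC 1.68), phosphatases of the MAP kinases, and *Zc3h12a* (Regnase-1, log2FC 2.27), *Zc3h12d* (log2FC 2.84), *Zfp36* (tristetraprolin, log2FC 1.16) and *N4bp1* (log2FC 1.86), which cut or destabilise mRNA. *Dusp7* (log2FC -1.25) fell. Of 23 immediate early genes, 10 rose and 0 fell (median 0.65). *Fosl1* (log2FC 4.52), *Ier3* (log2FC 2.67) and *Maff* (log2FC 2.37) rose most, whereas *Fos*, *Jun* and *Atf3* were not called (log2FC 0.65, -0.29 and 0.75).

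Secreted cytokines rose in 17 of 24 tested genes and fell in 4, with a median log2FC of 2.61. *Il1b*, the precursor of interleukin-1 beta (chr2:129206490-129213059 in GRCm39, minus strand), stood at 342, 325, 706, 1092 and 1041 CPM in LPS mice 1 to 5 and 18.9, 13.8, 37.8 and 20.2 CPM in PBS mice 1 to 4 (log2FC 4.95, SE 0.48, adjusted p = 1.56e-07). *Il1rn*, the secreted antagonist of the same receptor (chr2:24226865-24241506 in GRCm39, plus strand), stood at 302, 256, 403, 1052 and 997 CPM against 0.886, 1.03, 2.30 and 2.61 CPM (log2FC 8.47, SE 0.67, adjusted p = 1.45e-08). *Tnf* (chr17:35418357-35420983 in GRCm39, minus strand) stood at 627, 366, 624.5, 857 and 674 CPM against 49.4, 41.9, 48.3 and 53.6 CPM (log2FC 3.70, SE 0.37, adjusted p = 2.04e-07). The agonist and its antagonist were both highest in mice 4 and 5, and *Tnf* was lowest in mouse 2. *Il1a* (log2FC 3.02) rose too. *Il6* stood at 29.2, 22.6, 39.3, 75.1 and 71.3 CPM against 6.36, 4.91, 5.85 and 7.64 CPM (log2FC 2.94, SE 0.35, adjusted p = 2.02e-06), and *Il10* (log2FC 3.42) rose as well. *Csf3*, the growth factor of granulocytes, stood at 25.2, 75.4, 71.5, 175 and 95.8 CPM against 0, 0, 0 and 0.373 CPM (log2FC 9.83, SE 0.82, adjusted p = 2.79e-08), and its 1 PBS library above 0 was mouse 4. *Il12b*, the p40 chain shared by interleukins 12 and 23, differed widely between mice. It stood at 22.01, 21.0, 77.9, 180.2 and 619 CPM against 0.261, 0.0606, 0 and 0.807 CPM (log2FC 9.31, SE 1.25, adjusted p = 6.91e-06, and a log2FC of 8.02 without LPS mouse 5 and 10.55 without PBS mouse 4), so that its SD after LPS exceeded its mean (184 ± 252 CPM). *Il12a* held 58 counts in the LPS group and 0 in the PBS group, at least 17.1-fold higher against a floor of 3 counts over the PBS group, and *Il23a* held 41 counts against 1, a ratio of 36.3 (95% counting interval 6.16 to 1468). The genes that fell were *Il16* (log2FC -1.32), *Il15* (log2FC -1.06), *Tnfsf13b* (BAFF, log2FC -0.86) and *Tgfb1* (log2FC -0.66). *Il18*, *Il33* and *Il34* were not called (log2FC 0.03, 0.43 and 0.26), and *Ifnb1* and *Csf2* had too few counts to be tested.

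Chemokines of both main families rose. Of 16 CC chemokines, 11 rose and 2 fell (median log2FC 2.50), and of 13 CXC and CX3C chemokines 9 rose and 1 fell (median 4.60, and 5.56 without PBS mouse 2). *Ccl5* (RANTES, chr11:83416602-83425942 in GRCm39, minus strand) stood at 176, 123, 169.6, 371 and 506 CPM in LPS mice 1 to 5 and 0.678, 1.27, 1.31 and 1.24 CPM in PBS mice 1 to 4 (log2FC 7.90, SE 0.50, adjusted p = 1.45e-09). *Cxcl10*, which draws CXCR3-bearing lymphocytes and is induced by interferon (chr5:92494497-92496748 in GRCm39, minus strand), stood at 216, 167, 326, 849 and 789.6 CPM against 4.27, 2.91, 3.74 and 5.40 CPM (log2FC 6.84, SE 0.67, adjusted p = 1.66e-07). In both genes mice 4 and 5 held the 2 highest values, and the lowest LPS value was far above the highest PBS value. *Ccl3*, which recruits monocytes and was already well detected after PBS, gave 737, 412, 748, 1189.7 and 1271 CPM against 196, 162, 189.9 and 158 CPM (log2FC 2.30, SE 0.37, adjusted p = 5.47e-05), and *Ccl2* gave 83.2, 69.8, 99.6, 113 and 100.5 CPM against 19.4, 14.1, 15.8 and 17.0 CPM (log2FC 2.49, SE 0.26, adjusted p = 4.49e-07). The neutrophil attractants *Cxcl1* (log2FC 6.34), *Cxcl2* (log2FC 4.60) and *Cxcl5* (log2FC 6.84) rose. *Cxcl3*, of the same group, held 459 counts against 2, a ratio of 203 (95% counting interval 55.9 to 1683), and *Ccl20* held 295 counts against 0, at least 87.1-fold higher. *Ccl22* (log2FC 5.56), *Ccl12* (log2FC 3.23) and *Cxcl16* (log2FC 2.72) also rose. *Ccl24* (eotaxin-2, log2FC -2.05) and *Ccl6* (log2FC -0.84) fell. So did *Cxcl12*, a vascular and stromal chemokine, which stood at 3.04, 18.6, 10.2, 12.9 and 4.78 CPM against 54.1, 249, 86.5 and 128 CPM (log2FC -3.70, SE 0.62, adjusted p = 8.33e-05). *Cxcl12* was highest in mouse 2 of either group, and of 8 endothelial markers 4 fell and 0 rose. *Cldn5*, *Slco1a4*, *Vwf* and *Itm2a* fell, *Pecam1*, *Flt1*, *Ly6c1* and *Cdh5* were not called (log2FC -0.56, -0.57, 0.15 and 1.31), and the 8 summed to 172 to 784 CPM after LPS and 442 to 1369 CPM after PBS, which overlap. Their part in the fall of *Cxcl12* was not tested.

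**Figure D3:**
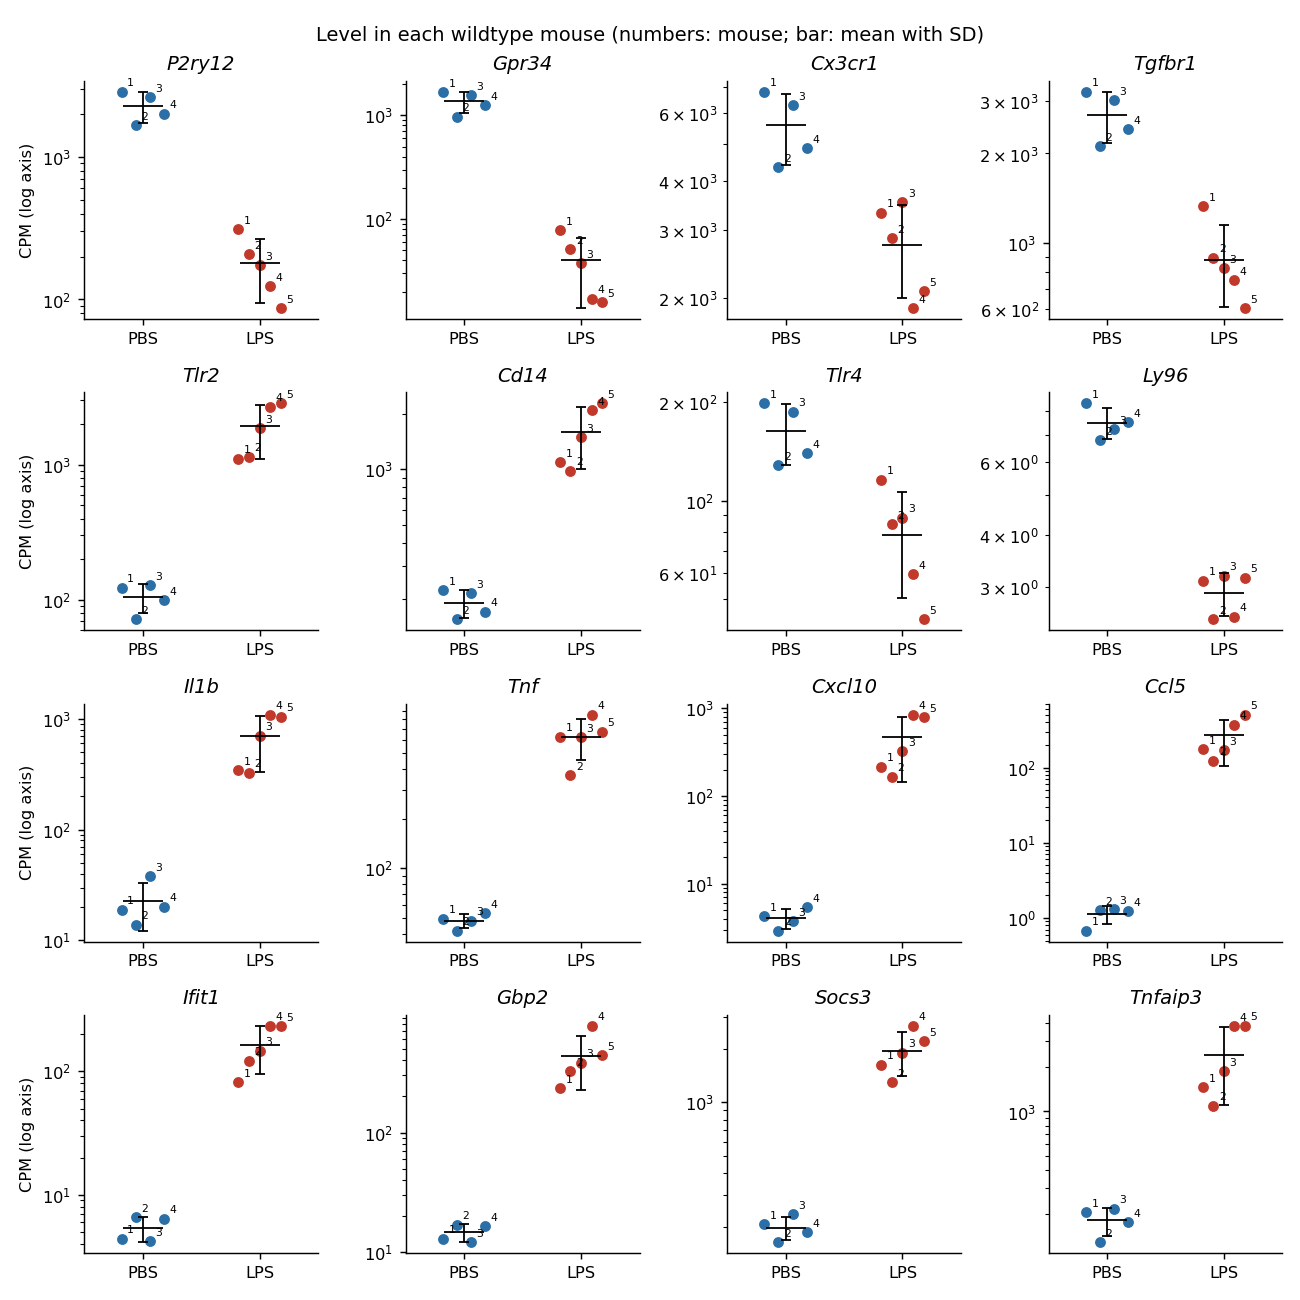
Points give the level in CPM, on a log axis, of 16 genes in each of the 4 PBS mice (blue) and 5 LPS mice (red), numbered by mouse, with the mean and SD as a bar. No panel shows an overlap between groups. *Tlr4*, *Ly96*, *P2ry12*, *Gpr34*, *Cx3cr1* and *Tgfbr1* were lower after LPS and the other 10 genes higher, with LPS mice 4 and 5 mostly at the far end.

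Nearly all of the antiviral genes and interferon-inducible GTPases tested rose. All 34 tested type I interferon-stimulated antiviral genes rose, between 1.49 (*Eif2ak2*, the RNA-activated kinase PKR) and 6.35 (*Oasl1*, an oligoadenylate synthetase-like protein) on the log2 scale, with a median log2FC of 3.52, against 18.4% that rose over all genes. *Ifit1*, which binds RNA lacking host cap methylation (chr19:34618271-34632174 in GRCm39, plus strand), stood at 81.3, 122, 147, 234 and 233 CPM in LPS mice 1 to 5 and 4.38, 6.55, 4.20 and 6.40 CPM in PBS mice 1 to 4 (log2FC 4.92, SE 0.39, adjusted p = 1.48e-08). *Isg15*, a ubiquitin-like modifier (chr4:156283883-156285303 in GRCm39, minus strand), gave 44.4, 42.7, 57.4, 84.4 and 87.0 CPM against 2.40, 1.82, 1.77 and 2.73 CPM (log2FC 4.85, SE 0.27, adjusted p = 4.01e-10). *Irf7*, the factor that amplifies type I interferon, gave 267, 230.2, 274, 385 and 357 CPM against 10.2, 11.6, 9.07 and 14.5 CPM (log2FC 4.74, SE 0.21, adjusted p = 5.10e-11). Mice 4 and 5 held the 2 highest values of each of these genes, and the difference between LPS mice was small beside that between groups. *Rsad2* (viperin, log2FC 5.71), *Oas3* (log2FC 5.30), *Parp14* (log2FC 2.48), *Slfn5* (log2FC 2.93) and *Trim30a* (log2FC 1.93) rose too. Of 18 interferon-inducible GTPases, which attack the vacuoles of intracellular pathogens, 16 rose and 0 fell (median 2.51). *Gbp2* stood at 233, 325, 383, 777 and 442 CPM against 12.98, 17.0, 12.2 and 16.5 CPM (log2FC 4.88, SE 0.36, adjusted p = 6.47e-09) and was highest in mouse 4. *Gbp5* (log2FC 4.13), *Gbp6* (log2FC 5.19), *Iigp1* (log2FC 4.47) and *Irgm1* (log2FC 2.13) rose, and *Gbp10* held 206 counts against 1, a ratio of 182 (95% counting interval 32.4 to 7238). Several of these GTPases are near-identical copies, so reads may have been split among them in counting.

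The promoter windows of *Cxcl10*, *Ifit1* and *Isg15* follow as examples, and were picked after their values were seen. Capitals mark the same letters as above.
Cxcl10 (chr5:92348840-92349139, minus strand): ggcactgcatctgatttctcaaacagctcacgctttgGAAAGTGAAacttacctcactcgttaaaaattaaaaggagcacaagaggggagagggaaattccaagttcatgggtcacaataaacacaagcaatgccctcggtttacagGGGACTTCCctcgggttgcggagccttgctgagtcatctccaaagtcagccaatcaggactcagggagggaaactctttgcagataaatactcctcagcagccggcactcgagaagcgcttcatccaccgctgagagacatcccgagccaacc
Ifit1 (chr19:34640639-34640938, plus strand): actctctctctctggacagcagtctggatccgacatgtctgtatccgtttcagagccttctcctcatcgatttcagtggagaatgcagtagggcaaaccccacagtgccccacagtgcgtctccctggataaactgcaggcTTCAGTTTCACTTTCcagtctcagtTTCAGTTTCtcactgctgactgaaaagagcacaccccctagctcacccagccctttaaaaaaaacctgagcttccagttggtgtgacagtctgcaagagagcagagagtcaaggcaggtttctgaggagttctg
Isg15 (chr4:156200769-156201068, minus strand): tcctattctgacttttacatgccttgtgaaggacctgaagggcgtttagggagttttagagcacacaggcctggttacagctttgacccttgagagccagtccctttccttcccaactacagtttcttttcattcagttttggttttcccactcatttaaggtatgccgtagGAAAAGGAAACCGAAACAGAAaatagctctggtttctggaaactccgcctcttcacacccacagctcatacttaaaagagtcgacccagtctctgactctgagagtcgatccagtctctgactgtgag
The interferon-response-like letters occurred 3 times in *Ifit1*, from 109, 103 and 84 bases before the start site, and 3 times in *Isg15*, from 78, 72 and 66 bases before it, where the matches overlap. *Cxcl10* held 1 match from 213 bases before its start site and a kappaB-like match from 103 bases before it. Of 2 more windows looked at in the same way, that of *P2ry12* held 0 matches to either motif and that of *Saa3* an interferon-response-like match from 125 bases before its start site.

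Of 27 genes for interferon receptors, JAK kinases, STAT and IRF factors and SOCS proteins, 14 rose and 1 fell (median log2FC 0.97). Feedback inhibitors were among them. *Socs3*, which blocks signalling by the interleukin-6 receptor family (chr11:117856905-117860898 in GRCm39, minus strand), stood at 1624, 1296, 1897, 2686 and 2207 CPM in LPS mice 1 to 5 and 207, 164, 235 and 186 CPM in PBS mice 1 to 4 (log2FC 3.29, SE 0.27, adjusted p = 2.28e-08), and *Socs2* (log2FC 3.55), *Cish* (log2FC 2.76) and *Socs1* (log2FC 1.47) rose as well. *Stat3* (log2FC 1.72), *Stat2* (log2FC 2.40) and *Irf1* (log2FC 1.81) rose. The 4 receptor chains *Ifnar1*, *Ifnar2*, *Ifngr1* and *Ifngr2* were not called (log2FC 0.01, 0.13, 0.12 and 0.29), and *Irf4* (log2FC -1.06) fell.

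Antigen presentation moved in opposite directions in its classes. Of 21 genes for MHC class I, peptide loading and the immunoproteasome, 17 rose and 1 fell (median log2FC 1.14). *H2-K1*, a classical class I heavy chain, stood at 711, 605, 783, 959 and 893 CPM in LPS mice 1 to 5 and 302, 225, 311 and 281 CPM in PBS mice 1 to 4 (log2FC 1.5, SE 0.16, adjusted p = 5.24e-07). *Nlrc5* (log2FC 3.53), the transactivator of class I genes, *Tap1* (log2FC 2.03), the peptide transporter, and *B2m* (log2FC 0.62), the light chain, rose, and *H2-M3* (log2FC -0.54) fell. The class I heavy chains are closely related in sequence, so counts may be shared among them. Of 12 class II genes, 7 fell and 1 rose (median -0.95). *H2-Aa* was lower, at 53.0, 29.6, 33.1, 44.1 and 33.7 CPM against 75.3, 86.7, 101 and 81.7 CPM (log2FC -1.15, SE 0.21, adjusted p = 1.82e-04), and so were *H2-Eb1* (log2FC -1.27), *H2-Ab1* (log2FC -0.75), *H2-DMa* (log2FC -1.19) and *H2-DMb1* (log2FC -1.62), the last pair being peptide exchange factors. *Cd74*, the invariant chain, was the member that rose, at 360.0, 241, 315, 342 and 343 CPM against 207, 224, 229.8 and 198 CPM (log2FC 0.58, SE 0.19, adjusted p = 0.0171), and the transactivator *Ciita* was not called (log2FC 0.14). The class II genes are expressed at high level by macrophages at the brain's borders, whose 9 markers summed to 314 to 538 CPM after LPS and 553 to 672 CPM after PBS, with 6 of 9 fallen and 0 risen. *Mrc1* and *Pf4* among them were not called. Their part in the class II values was not tested.

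Genes that mark microglia at rest fell almost without exception. Of 27 homeostatic genes 25 fell and 0 rose, with a median log2FC of -1.67, against 17.4% that fell over all genes. *P2ry12*, the receptor by which microglial processes find ADP (chr3:59123682-59170429 in GRCm39, minus strand), stood at 311, 208, 175, 124 and 87.1 CPM in LPS mice 1 to 5 and 2857, 1664, 2625 and 2009 CPM in PBS mice 1 to 4 (log2FC -3.66, SE 0.35, adjusted p = 1.28e-07). *Gpr34*, a lysophosphatidylserine receptor (chrX:13489625-13507116 in GRCm39, plus strand), fell further, at 78.5, 51.3, 37.4, 17.0 and 15.8 CPM against 1674, 972, 1566 and 1250.3 CPM (log2FC -5.09, SE 0.43, adjusted p = 2.72e-08). *Slc2a5*, the fructose transporter GLUT5, gave 44.3, 31.0, 36.3, 17.0 and 22.4 CPM against 660.2, 445, 552 and 481 CPM (log2FC -4.14, SE 0.35, adjusted p = 3.36e-08). For each of these genes the highest LPS value lay well under the lowest PBS value, and mice 4 and 5 held the 2 lowest values. The receptor of fractalkine, *Cx3cr1* (chr9:119877749-119898945 in GRCm39, minus strand), fell less, at 3316, 2857, 3538, 1883 and 2084 CPM against 6808, 4348, 6291 and 4863 CPM (log2FC -1.03, SE 0.27, adjusted p = 0.00408). *Csf1r*, the receptor on which microglial survival depends, gave 7124, 5741, 6275, 4954 and 5170.4 CPM against 12086, 7932, 10792 and 7953 CPM (log2FC -0.73, SE 0.20, adjusted p = 0.00714). *Sall1*, the transcription factor that marks microglia among macrophages, gave 357, 229, 235, 138 and 139 CPM against 1099.5, 742, 1021 and 857 CPM (log2FC -2.08, SE 0.23, adjusted p = 5.67e-07). *Tmem119* (log2FC -1.26), *Trem2* (log2FC -1.79), *Olfml3* (log2FC -2.15), *Siglech* (log2FC -1.76) and *Gpr165* (log2FC -4.21) fell, and *Sall3* and *Lag3* were not called (log2FC -0.19 and -0.44). In a bulk library, fewer microglia among the sorted cells and less RNA of these genes per microglial cell cannot be told apart. *Itgam*, given above, was not called, but other myeloid cells carry it too, so it does not settle this.

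Of 19 TGF-beta signalling genes, 6 fell, 1 rose and 12 were not called (median log2FC -0.30, and -0.09 without PBS mouse 2), where 17.4% of all genes fell. *Tgfbr1*, the type I receptor (chr4:47353134-47414931 in GRCm39, plus strand), stood at 1329, 893, 824, 750.4 and 605 CPM in LPS mice 1 to 5 and 3223, 2118, 3016 and 2409.7 CPM in PBS mice 1 to 4 (log2FC -1.61, SE 0.23, adjusted p = 1.51e-05), and *Tgfbr2* (log2FC -0.59), *Smad7* (log2FC -0.67) and *Smad3* (log2FC -0.55) fell, while *Tgif1* (log2FC 1.01), a repressor of the pathway, rose. Of 24 myeloid and microglial transcription factors 9 rose and 10 fell (median -0.20). The risen ones included *Cebpb* (log2FC 3.14) and *Cebpd* (log2FC 2.28), factors of the acute-phase response, *Batf* (log2FC 3.04), *Runx1* (log2FC 1.31) and *Spi1* (PU.1, log2FC 1.03). The fallen ones included *Mef2c* (log2FC -1.26), *Mef2a* (log2FC -0.83), *Maf* (log2FC -1.15) and *Cebpa* (log2FC -1.28).

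Genes raised in microglia around plaques and degenerating neurons were split, with 10 of 24 risen and 7 fallen (median log2FC 0.31). *Spp1* (osteopontin, chr5:104582165-104589235 in GRCm39, plus strand) stood at 138, 161, 183, 160.1 and 129 CPM in LPS mice 1 to 5 and 6.46, 5.94, 5.19 and 5.03 CPM in PBS mice 1 to 4 (log2FC 4.77, SE 0.25, adjusted p = 2.35e-10), and the 5 LPS mice were close to each other. *Cst7* (log2FC 2.48), *Lilrb4a* (log2FC 2.80), *Fth1* (log2FC 1.93), the ferritin heavy chain, and *Gpnmb* (log2FC 1.25) rose. *Apoe*, a lead member of that set, was lower, at 250.7, 309, 277, 353 and 220.4 CPM against 418, 594, 435 and 561 CPM (log2FC -0.83, SE 0.20, adjusted p = 0.00262). *Igf1* was lower still, at 2.39, 0.723, 0.723, 1.89 and 1.11 CPM against 25.5, 21.2, 29.4 and 29.3 CPM (log2FC -4.25, SE 0.32, adjusted p = 1.01e-08), and *Timp2* (log2FC -1.93), *Ctsd* (log2FC -1.09), *Cd9* (log2FC -0.91) and *Cd68* (log2FC -0.71) fell. *Itgax*, *Clec7a*, *Tyrobp* and *Lpl* were not called (log2FC 0.21, -0.29, -0.45 and -0.24).

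Of 28 receptors for nucleotides and chemoattractants 15 rose and 5 fell (median log2FC 0.84), where 18.4% of all genes rose and 17.4% fell. The ones that fell were *P2ry12* (log2FC -3.66), *P2rx7* (log2FC -1.60), *P2ry13* (log2FC -1.48), *Cx3cr1* (log2FC -1.03) and *C5ar2* (log2FC -0.95). The receptors that rose included *Fpr1* (log2FC 4.89) and *Fpr2* (log2FC 5.12), which bind formylated bacterial peptides, *C5ar1* (log2FC 2.97), for complement C5a, *P2ry2* (log2FC 4.79), for ATP and UTP, *Gpr84* (log2FC 4.19), for medium-chain fatty acids, *Adora2a* (log2FC 2.53), for adenosine, and *Ccr7* (log2FC 7.09), for the chemokines of lymphoid tissue. *P2rx4* and *P2ry6* were not called (log2FC 0.40 and 0.34).

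Of 30 Fc, lectin and scavenger receptors, 16 rose and 7 fell (median log2FC 0.92). *Marco*, a scavenger receptor for bacterial surfaces (chr1:120402267-120432753 in GRCm39, minus strand), stood at 7.57, 5.98, 6.56, 48.9 and 85.1 CPM in LPS mice 1 to 5 and at 0 counts in all 4 PBS mice, at least 613-fold higher against a floor of 3 counts over the PBS group. Mice 4 and 5 carried most of its counts. *Msr1* (log2FC 5.51), *Trem1* (log2FC 5.13), *Clec4e* (Mincle, log2FC 4.83) and the low-affinity Fc receptors *Fcgr4* (log2FC 4.14) and *Fcgr2b* (log2FC 1.64) rose. *Cd36* (log2FC -2.54), *Sirpa* (log2FC -2.05), the receptor of CD47, *Mertk* (log2FC -0.63), a receptor for dying cells, and *Siglecf* (log2FC -1.28) fell. Of 18 complement genes 6 rose and 2 fell (median 0.31). *C3*, the central component, stood at 139, 209.6, 245, 246 and 249.8 CPM against 8.50, 11.03, 8.21 and 5.22 CPM (log2FC 4.72, SE 0.42, adjusted p = 5.66e-08) and *Cfb*, factor B of the alternative pathway, held 92 counts against 0, at least 27.2-fold higher. *C1qc* (log2FC -0.54) fell, whereas *C1qa* and *C1qb* were not called (log2FC -0.17 and 0.09).

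Of 21 costimulatory and checkpoint molecules 15 rose and 5 fell (median log2FC 1.34). *Cd274* encodes PD-L1 and gave 183, 197, 289, 577 and 451 CPM in LPS mice 1 to 5 and 15.7, 12, 15.96 and 13.8 CPM in PBS mice 1 to 4 (log2FC 4.56, SE 0.32, adjusted p = 4.15e-09). *Cd40* (log2FC 4.90), *Cd69* (log2FC 5.27), *Tnfrsf9* (4-1BB, log2FC 6.26), *Cd80* (log2FC 1.27) and *Cd86* (log2FC 0.88) rose, and *Pdcd1lg2* (PD-L2) held 62 counts against 0, at least 18.3-fold higher. *Vsir* (VISTA, chr10:60182630-60208463 in GRCm39, plus strand) was lower, at 1257, 858, 711, 325 and 324 CPM against 3069, 2297, 2716 and 2384 CPM (log2FC -1.91, SE 0.31, adjusted p = 5.06e-05), and *Havcr2* (TIM-3, log2FC -0.77) and *Slamf9* (log2FC -2.12) fell. Of 23 adhesion molecules 9 rose and 7 fell (median 0.25), where 18.4% of all genes rose and 17.4% fell. The leukocyte genes *Cd44* (log2FC 4.29), *Itgal* (log2FC 3.81) and *Itga5* (log2FC 3.04) and the ligands *Icam1* (log2FC 2.46) and *Vcam1* (log2FC 2.51) rose. *Sele*, an adhesion molecule of activated vessel walls, stood at 3.16, 18.6, 17.5, 17.6 and 9.64 CPM, with 1010 counts after LPS against 1 after PBS, a ratio of 894 (95% counting interval 160.1 to 35353), and *Selp* (log2FC 7.49), another selectin of vessel walls, rose too. Of the 8 endothelial markers, 4 fell and 4 were not called, as given above. *Jam2* (log2FC -2.18), *Itga6* (log2FC -2.07), *Selplg* (log2FC -1.72) and *Icam2* (log2FC -1.49) fell.

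All 17 tested acute-phase and antimicrobial genes rose, with a median log2FC of 5.93 (5.69 with *Orm1*, which had 0 PBS counts, at its bound). *Orm1*, *Saa1*, *Serpina3i* and *Ptx3* had at most 2 counts in the PBS group and passed the count filter through the LPS group, and the other 4 of the 21 genes listed (*Saa2*, *Orm2*, *Serpina3m* and *Hamp*) had too few counts to be tested, so the filter takes part in this count. *Saa3*, a serum amyloid A protein of macrophages (chr7:46361422-46365576 in GRCm39, minus strand), stood at 417, 290.5, 401, 953 and 869.6 CPM in LPS mice 1 to 5 and 0.156, 0.182, 0.0657 and 2.05 CPM in PBS mice 1 to 4 (log2FC 9.91, SE 0.93, adjusted p = 1.07e-07). Leaving out PBS mouse 4, its 1 raised control, gave a log2FC of 12.01. *Lcn2*, the iron-sequestering lipocalin that neutrophil granules also hold (chr2:32274645-32278264 in GRCm39, minus strand), stood at 337, 633, 718, 1273 and 729 CPM against 13.3, 9.76, 10.4 and 9.69 CPM (log2FC 6.09, SE 0.59, adjusted p = 1.60e-07). *Slc39a14* (log2FC 4.31), a zinc and iron importer, *Hp* (haptoglobin, log2FC 5.69), *Serpina3n* (log2FC 6.07), *Slpi* (log2FC 4.30) and the metallothioneins *Mt1* (log2FC 3.00) and *Mt2* (log2FC 4.70) rose. *Ptx3*, a soluble pattern receptor, held 506 counts against 2, a ratio of 224 (95% counting interval 61.7 to 1855). *Slc40a1*, which encodes ferroportin, the cell's iron exporter (chr1:45947211-45965683 in GRCm39, minus strand), was lower, at 43.8, 27.7, 18.7, 19.1 and 15.9 CPM against 339, 185, 328 and 261 CPM (log2FC -3.47, SE 0.26, adjusted p = 7.94e-09), in the same mice in which *Fth1* rose.

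Of 30 tested genes of inflammatory metabolite and redox metabolism 18 rose and 5 fell (median log2FC 1.35). *Acod1*, the source of itaconate (chr14:103284413-103294009 in GRCm39, plus strand), stood at 132, 94.1, 160.4, 353 and 489.7 CPM in LPS mice 1 to 5 and 1.72, 1.21, 2.56 and 1.24 CPM in PBS mice 1 to 4 (log2FC 7.19, SE 0.74, adjusted p = 3.31e-07). *Ptgs2* (COX-2), the inducible prostaglandin synthase, stood at 157, 253, 363, 550.2 and 465 CPM against 11.8, 7.58, 16.3 and 11.2 CPM (log2FC 4.93, SE 0.44, adjusted p = 5.01e-08). *Nos2*, the inducible nitric oxide synthase, stood at 13.7, 11.4, 27.6, 69.8 and 60.2 CPM against 0.521, 2.91, 1.12 and 0.993 CPM (log2FC 4.72, SE 0.68, adjusted p = 1.63e-05). *Ch25h* (log2FC 7.32), which makes 25-hydroxycholesterol, *Sod2* (log2FC 3.32), *Slc7a11* (log2FC 4.12) and *Cybb* (NOX2, log2FC 2.93) rose. In the eicosanoid pathway the inducible terminal enzyme *Ptges* (log2FC 4.74) rose, and *Ptgs1* (COX-1, log2FC -1.30), *Hpgds* (log2FC -1.67), *Tbxas1* (log2FC -2.02), *Alox5* (log2FC -0.90) and *Alox5ap* (log2FC -0.82) fell.

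Glucose metabolism genes rose in 18 of 26 and fell in 3 (median log2FC 0.87). *Pfkfb3*, which makes the activator of phosphofructokinase (chr2:11476244-11558888 in GRCm39, minus strand), stood at 1792, 1517, 2074, 3785 and 3538 CPM in LPS mice 1 to 5 and 380.4, 241, 387 and 311 CPM in PBS mice 1 to 4 (log2FC 2.95, SE 0.30, adjusted p = 2.80e-07), one of the 10 largest gains in CPM. *Ldha* gave 371, 411, 481, 511 and 408 CPM against 109, 100.1, 98.1 and 100.1 CPM (log2FC 2.10, SE 0.15, adjusted p = 5.43e-09), and *Hif1a* (log2FC 1.73), *Slc2a6* (log2FC 3.83), *Pkm* (log2FC 1.5) and *Gapdh* (log2FC 0.98) rose. *Hk3* (log2FC -1.16), *Pdk1* (log2FC -1.24) and *Pfkfb4* (log2FC -0.62) fell. Of 84 nuclear-encoded subunits of oxidative phosphorylation 8 rose and 2 fell (median 0.06), and of 7 mitochondrially encoded protein genes 0 were called (median 0.16). Cholesterol genes were mixed, with 11 of 30 risen and 5 fallen (median 0.41): *Abca1* (log2FC 1.00) and *Nr1h3* (LXR-alpha, log2FC 2.64) rose, and the exporter *Abcg1* (log2FC -1.55) and *Npc1* (log2FC -1.04) fell. Lysosomal genes fell in 19 of 33 and rose in 3 (median -0.62). *Sgsh*, a heparan sulfatase, stood at 7.87, 6.91, 4.22, 4.03 and 3.92 CPM against 62.8, 48.9, 55.3 and 48.5 CPM (log2FC -3.32, SE 0.27, adjusted p = 1.85e-08), *Hexa* (log2FC -1.60), *Naglu* (log2FC -1.81), *Ctsd* (log2FC -1.09) and *Psap* (log2FC -0.72) fell, and the proteases *Ctsc* (log2FC 1.31), *Ctsl* (log2FC 0.81) and *Ctsz* (log2FC 0.51) rose.

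Genes for making ribosomes rose in every case tested. All 34 ribosome biogenesis factors rose, from 0.78 (*Polr1c*) to 2.89 (*Grwd1*), with a median log2FC of 1.84. *Nop58*, a core protein of the box C/D particles that guide rRNA methylation, stood at 111, 112, 134, 128 and 116 CPM in LPS mice 1 to 5 and 28.4, 20.4, 24.5 and 20.8 CPM in PBS mice 1 to 4 (log2FC 2.35, SE 0.15, adjusted p = 1.89e-09). *Npm1* (nucleophosmin) gave 264, 216, 257, 292 and 249.8 CPM against 95.7, 81.6, 96.4 and 77.7 CPM (log2FC 1.54, SE 0.18, adjusted p = 1.68e-06). The LPS mice were near each other here, and mice 4 and 5 did not stand out: the list's median difference from the PBS mean, on the scale of log2 CPM, was 1.81, 1.76, 2.04, 1.75 and 1.78 in mice 1 to 5. For cytokines the same figure was 2.08, 1.88, 2.14, 2.51 and 3.02, and for homeostatic genes -0.98, -1.41, -1.56, -1.97 and -2.09. Cytosolic ribosomal proteins rose in 48 of 82 and fell in 0 (median 0.61), a lower median than that of the factors that assemble them. Cytosolic aminoacyl-tRNA synthetases rose in 18 of 20 (median 1.16), with *Farsb* (log2FC 1.49), *Tars1* (log2FC 1.48) and *Eprs1* (log2FC 1.47) in front. Proteasome subunits, the 3 inducible ones included, rose in 30 of 38 and fell in 0 (median 0.70), for example *Psmd14* (log2FC 1.08) and *Psma5* (log2FC 1.06). Of 26 genes of the unfolded protein and integrated stress responses, 13 rose and 2 fell (median 0.62). *Asns* (log2FC 3.22), *Chac1* (log2FC 3.16), *Sesn2* (log2FC 1.72) and *Trib3* (log2FC 1.46), targets of ATF4, and *Atf4* (log2FC 1.35) itself rose, as did the chaperone *Hspa5* (BiP, log2FC 0.91). *Ddit3* (CHOP) and *Dnajb9* were not called (log2FC 0.29 and 0.08).

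**Figure D4:**
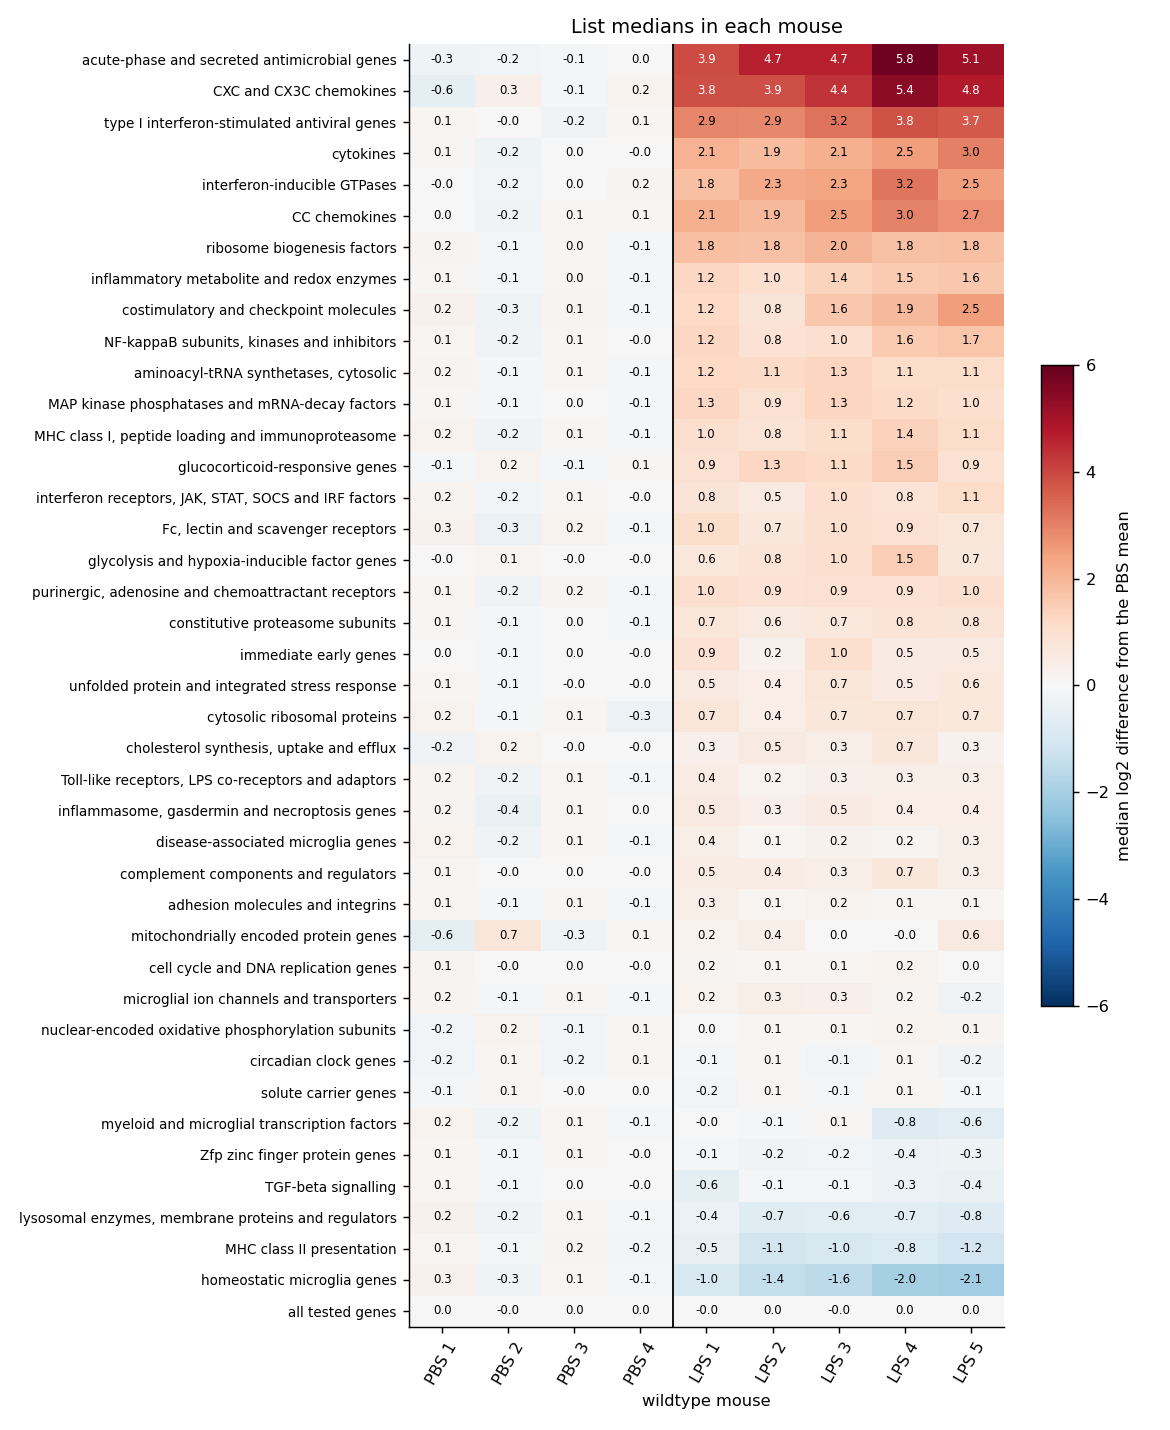
Each cell gives, for 1 list (row) in 1 wildtype mouse (column), the median over its tested genes of the log2 CPM difference from the mean of the 4 PBS mice, with red for higher and blue for lower. The rows of cytokines, antiviral genes, interferon-inducible GTPases and homeostatic genes are furthest from 0 in LPS mice 4 and 5, whereas ribosome biogenesis runs from 1.75 to 2.04 over the 5 LPS mice.

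Genes of hormone response and the clock were also counted. Of 18 genes known to respond to glucocorticoids, the adrenal hormones released in systemic inflammation, 11 rose and 3 fell (median log2FC 1.09). *Fkbp5*, a co-chaperone of the glucocorticoid receptor and a common readout of its activity (chr17:28618058-28737521 in GRCm39, minus strand), stood at 1009.7, 694, 605, 542 and 468 CPM in LPS mice 1 to 5 and 108.3, 239, 103 and 106 CPM in PBS mice 1 to 4 (log2FC 2.26, SE 0.27, adjusted p = 1.93e-06). Here mouse 1 was highest and mouse 5 lowest of the LPS group, and PBS mouse 2 lay above the other controls. *Il1r2* (log2FC 4.03), the decoy receptor of interleukin-1, *Zbtb16* (log2FC 2.79), *Cdkn1a* (p21, log2FC 3.27) and *Sgk1* (log2FC 0.86) rose, and the receptor gene *Nr3c1* was not called (log2FC 0.41). Of 20 clock genes 5 rose and 7 fell (median -0.06, and 0.10 without PBS mouse 2), where 18.4% of all genes rose and 17.4% fell. *Dbp*, a clock output factor, gave 9.84, 11.5, 7.95, 11.2 and 9.21 CPM against 37.5, 69.2, 41.1 and 68.2 CPM (log2FC -2.44, SE 0.25, adjusted p = 2.57e-07). *Hlf* (log2FC -1.75) and *Tef* (log2FC -0.98), of the same factor family, *Per3* (log2FC -1.73), *Nr1d1* (log2FC -1.06) and *Nr1d2* (log2FC -1.32) fell, whereas *Per2* (log2FC 1.56), *Cry1* (log2FC 1.52) and *Nfil3* (log2FC 4.50) rose and *Clock* and *Bmal1* were not called (log2FC 0.12 and 0.31). Hours of injection are not given in the sources used here.

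Of 29 cell cycle genes 4 rose and 6 fell (median log2FC 0.15), close to the 18.4% and 17.4% of all genes. *Mki67* (log2FC 0.72) and *Top2a* (log2FC 0.68) rose, *Ccnd1* (log2FC -1.03), *Mcm7* (log2FC -0.84) and *E2f1* (log2FC -1.29) fell, and *Cdk1* and *Pcna* were not called (log2FC -0.36 and 0.17). Genes of the inflammasome, gasdermins and necroptosis rose in 8 of 19 and fell in 3 (median 0.34). *Casp4* (caspase-11), the cytosolic LPS sensor, stood at 65.0, 50.8, 82.7, 122 and 105 CPM in LPS mice 1 to 5 and 17.7, 8.79, 17.0 and 12.05 CPM in PBS mice 1 to 4 (log2FC 2.62, SE 0.33, adjusted p = 2.95e-06), and *Nlrp3* (log2FC 2.16), *Mefv* (pyrin, log2FC 6.30), *Ripk3* (log2FC 1.95) and *Mlkl* (log2FC 3.63) rose. The shared parts *Casp1*, *Pycard* and *Gsdmd* were not called (log2FC 0.26, 0.34 and -0.04), and *Casp8* (log2FC -0.56), *Gsdme* (log2FC -0.85) and *Nlrp1b* (log2FC -1.05) fell. Of 20 ion channels and transporters of microglia 7 rose and 7 fell (median 0.10), with *Kcna3* (Kv1.3, log2FC 2.7) up and *Trpv2* (log2FC -0.94) down, and *Kcnk13* (THIK-1) not called (log2FC 0.14). Of 368 *Zfp* zinc finger genes 33 rose and 103 fell (median -0.25). Of 277 solute carriers 59 rose and 54 fell, near the shares over all genes (median -0.08, and 0.05 without PBS mouse 2).

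By the size of the fitted fold, the 10 protein-coding genes that rose most, among those with a mean of at least 10 CPM after LPS and no overlap, were *Marco*, *Saa3*, *Csf3*, *Il12b*, *Sele*, *Il1rn*, *Ccl5*, *Ifi205*, *Serpina3f* and *F10*. The last, coagulation factor X, stood at 45.0, 23.6, 35.6, 41.0 and 54.4 CPM in LPS mice 1 to 5 and 0, 0.303, 0.131 and 0.435 CPM in PBS mice 1 to 4 (log2FC 7.51, SE 0.59, adjusted p = 1.30e-08). The fitted folds of *Marco* and *Sele* rest on 0 and 1 PBS counts, so their places in this order are not measured. The 10 that fell most were *Adamts16*, *Gpr34*, *Tspan18*, *Bank1*, *Gm3739*, *Smim10l2a*, *Igf1*, *Gpr165*, *Hmcn1* and *Slc2a5*. *Adamts16*, a secreted protease, gave 0.716, 0.592, 0.723, 0.195 and 0.767 CPM against 52.7, 25.8, 39.2 and 29.7 CPM (log2FC -5.93, SE 0.42, adjusted p = 4.28e-09), and *Bank1*, an adaptor known from B cells, gave 4.59, 4.08, 4.09, 2.41 and 2.90 CPM against 98.2, 71.7, 97.2 and 79.9 CPM (log2FC -4.58, SE 0.38, adjusted p = 2.85e-08). By the gain in CPM, which grows with transcript length and level, the first 10 were *Actb*, *Tnfaip3*, *Pfkfb3*, *Tlr2*, *Socs3*, *Rnf213*, *Fth1*, *Cd14*, *Wnk1* and *Hspa8*. The call of *Actb* (log2FC 0.65) was lost in a fit of the 9 wildtype libraries alone (adjusted p = 0.0601). By the loss in CPM they included *Csf1r*, *Cx3cr1*, *Cst3*, *P2ry12*, *Sirpa*, *Vsir*, *Serinc3*, *Tgfbr1* and *Lrp1*. The call of *Cst3* (log2FC -0.74) was lost without PBS mouse 1 (adjusted p = 0.0743).

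In genome order there were 130 runs of at least 4 neighbouring tested genes that all rose (80 runs) or all fell (50 runs), and no number expected by chance was computed. The longest runs of rises were 12 genes of the interferon-inducible Ifi200 family (chr1:173296051-173859456, from *Ifi206* to *Ifi205*, median log2FC 3.72), 11 genes of the Ms4a family and their neighbours (chr19:11352823-11753838, from *Ms4a4a* to *Mrpl16*, median 3.26) and 9 from *Alpk1* to *Fam241a* (chr3:127463323-127689986, median 1.78), the first of which encodes a kinase that senses bacterial ADP-heptose. A run of 8 rises held 7 genes of the Trem receptor family (chr17:48178058-48634052, from *Foxp4* to *Trem6l*, median 2.67). The longest runs of falls were 12 genes from *Gm3264* to *Nid2* (chr14:17592863-19861855, median -3.83) and 9 from *Mgll*, which encodes monoacylglycerol lipase, to *Tpra1* (chr6:88652108-88891657, median -1.61). Coordinates are those of GRCm39. The Ifi200 and Ms4a genes and the predicted genes on chromosome 14 are near copies of each other, between which reads can be split or shared, so the genes of such a run are not independent.

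Markers of other cells that bind CD11b beads or can be carried along were counted beside the results above. Of 14 neutrophil markers 6 rose and 1 fell, and they summed to 871 to 2062 CPM after LPS and 464 to 695 CPM after PBS. Most of that difference was *Lcn2*, counted above as an acute-phase gene, and without it the other 13 markers summed to 534 to 842 CPM after LPS and 454 to 682 CPM after PBS, which overlap. *Csf3r*, which fell, made up much of that sum, and the 12 markers without both genes summed to 192 to 531 CPM after LPS and 78.5 to 152 CPM after PBS, with no overlap. The granule and receptor genes *Cxcr2* (log2FC 4.17), *Mmp8* (log2FC 2.74), *S100a8* (log2FC 2.20), *S100a9* (log2FC 2.12) and *Mmp9* (log2FC 1.16) rose while *Csf3r* (log2FC -0.64), the receptor of the growth factor made from *Csf3*, fell. The granule genes *Ngp*, *Camp*, *Ltf* and *Retnlg* were not called (log2FC 1.40, 0.61, 0.23 and 0.90), and the defining genes *Ly6g*, *Elane* and *Mpo* stayed at most at 1.75, 1.57 and 2.41 CPM after LPS and were not called. Of 10 monocyte markers 9 rose and 0 fell (757 to 1117 against 277 to 439 CPM), among them *Ly6c2* (log2FC 5.26), *Plac8* (log2FC 6.36), *Chil3* (log2FC 2.92) and *Ccr2* (log2FC 0.79). Of 5 tested T and NK cell markers *Gzmb* (log2FC 4.24), *Gzma* (log2FC 2.19) and *Lck* (log2FC 1.19) rose, at most at 7.80, 6.37 and 2.47 CPM, while *Cd3d*, *Cd3e*, *Cd3g* and *Cd2* had at most 3 counts in any library. Of 4 tested B cell markers 2 fell and 0 rose. *Ighm* was lower, at 34.4, 18.9, 26.9, 17.8 and 23.9 CPM in LPS mice 1 to 5 and 288, 177, 254 and 154 CPM in PBS mice 1 to 4 (log2FC -3.16, SE 0.24, adjusted p = 9.92e-09), and *Cd79b* (log2FC -2.18) fell. Markers of oligodendrocytes and of choroid plexus and ependyma were not called (0 of 8 and 0 of 6), and of astrocyte markers 1 of 8 rose. The choroid plexus and ependyma markers varied widely within groups, and summed to 1351, 7051, 4044, 8841 and 6607 CPM in LPS mice 1 to 5. In PBS mice 1 to 4 they summed to 2063.5, 9314, 2358 and 11642 CPM. The part of this spread in other values was not tested. The part of neutrophil and monocyte RNA in the values of the chemokine receptors, acute-phase genes and adhesion molecules given above was not tested.

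Motif letters were counted in the 300-base promoter windows of the 14469 tested protein-coding genes, taken from the Ensembl canonical transcripts in GRCm39, because the RefSeq windows covered 78.2% of the tested genes, which was too few for a check over all genes. The kappaB-like letters GGGANTTNC occurred in 5.00% of all windows, in 6.66% of those of genes that rose, in 9.70% of those that rose by at least 2 on the log2 scale and in 4.21% of those that fell. The interferon-response-like letters GAAANNGAA occurred in 8.27, 10.9, 18.3 and 6.86% of the same sets. They stood in 18 of 34 windows of the antiviral list and 13 of 18 of the GTPase list. The AP-1-like letters TGANTCA occurred in 5.55, 7.23, 15.2 and 4.96%. The E-box CACGTG had 9.50, 11.3, 8.14 and 8.64%, and 7 of 34 ribosome biogenesis factors held it, and TGACGTCA, the cAMP response element, had 3.03, 3.74, 2.50 and 1.71%. Base composition moved with these shares: mean GC was 57.9% over all windows and 53.2% in those of genes that rose by at least 2 on the log2 scale, and its part in the shares was not tested. None of the 27 homeostatic genes held the kappaB-like letters, which says only that these letters are not in these windows.

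**Figure D5:**
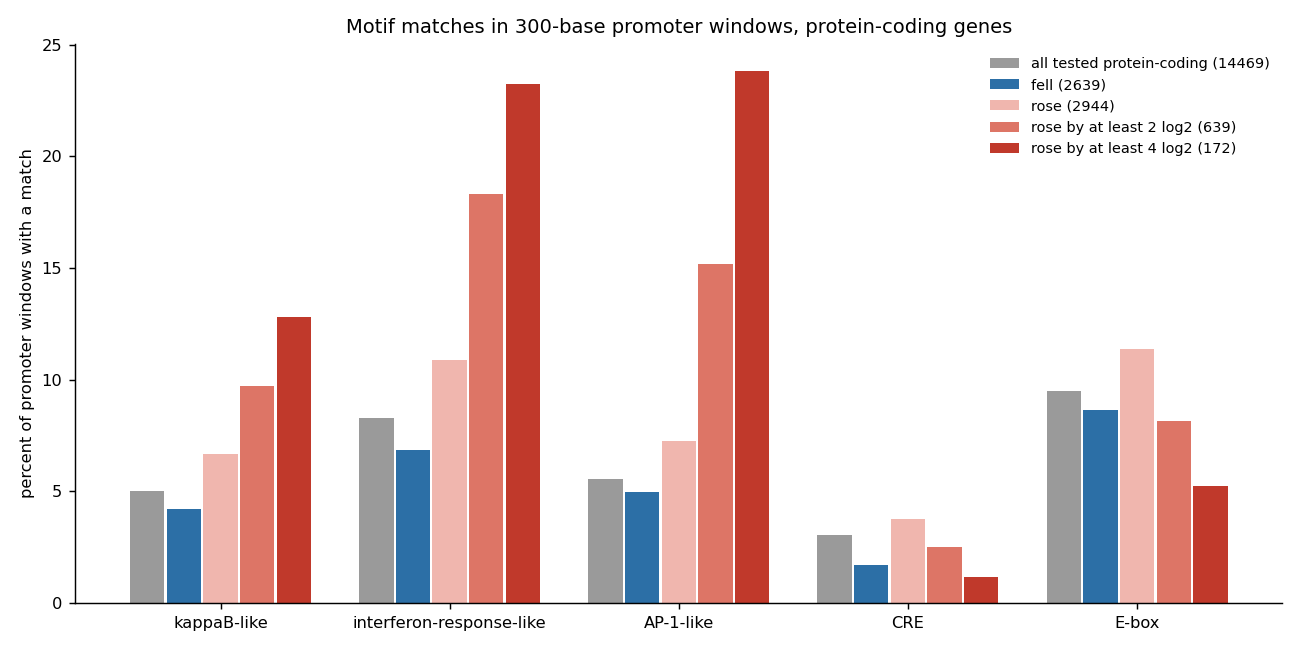
Bars give the percent of 300-base promoter windows of protein-coding genes that hold each of 5 motifs, for all tested genes (grey), genes that fell (blue) and genes that rose by any called amount or by at least 2 or 4 on the log2 scale (reds). The interferon-response-like share is 8.27% over all genes and 23.3% in the 172 genes that rose by at least 4.

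Whether the response to LPS differed in mice without *PARK7*/DJ-1 was tested as an interaction term in the fit of all 19 libraries. At an adjusted p under 0.05 edgeR found 0 of 18739 genes, and 180 at an unadjusted p under 0.05, where 937 would on average if no gene differed. A response of the same size in both genotypes is not shown by this count.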

How the data were processed

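The data were one table of gene counts for 19 libraries of RNA from CD11b+ brain cells, of which the 5 wildtype LPS and 4 wildtype PBS libraries were compared. Total RNA with an RQN of at least 7 was made into stranded, rRNA-depleted libraries and read as 2 × 75 bases. The authors trimmed the reads with cutadapt, aligned them to GRCm39 with STAR (2.7.9a) and deposited the unnormalized counts per Ensembl gene. The strand setting of the counting is not given in the sources used here, so overlapping genes on opposite strands may share reads. Names and positions came from GENCODE M39, which named 56236 of 56980 genes, of which 34986 had at least 1 count.

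Counts were fitted with edgeR 4.0.16 in R 4.3.3 by the quasi-likelihood test, with TMM normalization and genes kept by filterByExpr (minimum count 10, minimum total 15). All 19 libraries in their 4 groups entered the fit, with LPS minus PBS in wildtype as the contrast and p adjusted by Benjamini-Hochberg over the 18739 genes kept. SE is the size of the log2FC divided by the square root of F. CPM was scaled by TMM, and values by list and mouse used a prior count of 2. Each library was 1 mouse, and none of the 16 pairs within the 2 wildtype groups was a duplicate. Folds against 0 counts are lower bounds against 3 counts over the PBS group. The alternatives used DESeq2 1.42.0, other filters, normalizations, thresholds and sample sets.

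The genes named were, among called protein-coding genes without overlap, the 10 largest rises and falls (with at least 10 CPM in the higher group) and the 10 largest gains and losses in CPM, and in each list up to 4 called members by level, up to 4 by size of change and any called against the list's majority. Members named with a value beyond these, among them *Isg15*, *Il6*, *Ccl2*, *Nos2*, *Cd274*, *Fkbp5*, *H2-Aa*, *Tmem119* and every member given as not called, were chosen after their values were seen. The members and lists were chosen with earlier results of these data known. The list symbols *Fcrls* and *Ifgga2* matched no gene. The start-site windows printed are from RefSeq (GRCm38.p6), in which motifs were searched on both strands. Some genes that the rule names are not reported here.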

Additional observations from a re-analysis of the deposited data

Results flagged for a closer look

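In 12 of 194 groups tested (6.19%) 1 mouse lay apart from the rest of its group by Dixon's criterion, which chance alone meets in about 1 group in 20. LPS mouse 2 had the lowest summed level of the disease-associated microglia genes, at 8791 CPM against 10147 to 10676 CPM in the other LPS mice. It was also lowest for the phosphatases and mRNA-decay factors, at 5009 CPM against 6360.1 to 6514 CPM. This mouse had the most oligodendrocyte RNA of its group. PBS mouse 2 stood apart for the oligodendrocyte markers themselves, at 10182 CPM against 1117 to 1866 CPM, and for *Gm3739*, at 17.2 CPM against 22.1 to 22.7 CPM. LPS mouse 3 carried erythroid markers at 44.7 CPM against 0.179 to 4.41 CPM, and *Park7* at 32.1 CPM against 22.3 to 24.5 CPM.

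Of the genes with large rises, *Il12b* stood at 619 CPM in LPS mouse 5 against 21.0 to 180.2 CPM in the other LPS mice. PBS mouse 4 was raised for *Saa3*, at 2.05 CPM against 0.0657 to 0.182 CPM in the other controls, and for *Csf3*, at 0.373 CPM against 0. It was low for *Wnk1*, a kinase that governs chloride transport, at 872 CPM against 1213 to 1265 CPM. PBS mouse 3 held the 1 control count of *Sele* (0.0657 CPM against 0), and PBS mouse 1 was low for *Ccl5*, at 0.678 CPM against 1.24 to 1.31 CPM.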

How the results depend on the processing

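No gene was called in the opposite direction under any alternative listed here. Genes called numbered 3175 to 3555 higher and 2999 to 3557 lower under another normalization, other filters, DESeq2, the wildtype libraries alone, the animal number as a covariate and the removal of rRNA and mitochondrial genes. A log2FC of at least 1 left 2053 and 2026 genes, and a test against a log2FC of 0.5 left 2271 and 2057, both being stricter by construction. Without a floor on the fold, 4118 genes were higher and 3697 lower. Leaving out 1 library at a time gave 3262 (without LPS mouse 5) to 3561 (without LPS mouse 2) genes higher and 2869 (without PBS mouse 4) to 3327 (without LPS mouse 1) genes lower. The mean share of counts on risen genes was 21.5 percentage points higher after LPS, 20.6 to 22.5 with 1 library left out, and 15.5 with a log2FC of at least 1.

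The labels give no shared litter, batch or day for mice of the same replicate number. Deviations of same-numbered LPS and PBS libraries correlated at r = 0.576, 0.534, -0.0418 and 0.233, and LPS mice 3 and 4 correlated best with PBS mouse 2, so the numbers were not used as pairs. A fit with the replicate number as a block, which drops the LPS mouse without a partner number from the contrast, called 3441 genes higher and 3862 lower. *Actb*, *Csf1r* and *Cst3* were not called under the test against 0.5. The fitted log2FC of *Saa3* was 12.01 without PBS mouse 4. In the same setting *Csf3*, and without PBS mouse 3 *Sele*, had 0 control counts, so their folds rest on few reads. Without PBS mouse 2 the medians of the clock genes, the solute carriers and the TGF-beta genes were 0.10, 0.05 and -0.09, and the cause was not tested. The GRCm39 promoter windows, and leaving out both mice rich in oligodendrocyte RNA, were chosen after seeing the data. In the latter, 3118 of the risen and 2806 of the fallen genes were shared with the full set. Genes under 3 counts a library cannot be resolved at this depth.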
